A study of Mus musculus with 6 samples.

Results

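The genes described here are 37 that encode metabolic enzymes and intracellular carrier proteins best known from the liver, read in RNA of whole mouse aortas. A probe set, the group of probes that reads 1 transcript on the array, was assigned to a gene when the annotation of the array gave it that gene symbol alone. By this rule 35 of the 37 genes had a probe set, 48 probe sets of the 45101 on the array, which read 18193 genes in this way, and Sds and Gls2 had none. One further probe set was annotated to both Ass1 and Gm5424 and was not used. The genes were listed with differences between aortas of APOE-deficient (ApoE-/-) and B6 mice known, so values against B6 are given as a description, with no p value.

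Mice on the C57BL/6J background were compared in 3 groups. The first were ApoE-/- mice that received vitamin E, an antioxidant, at 2000 IU per kg of diet for 7 months. The others were ApoE-/- mice that received no treatment and nontransgenic B6 mice, and all were studied at 32 to 34 weeks of age. The standard chow held no added vitamin E, which only the treated mice received in their diet. ApoE-/- mice lack apolipoprotein E, become hypercholesterolemic and develop atherosclerotic plaques, and the study asked how vitamin E alters gene expression in their aortas. Each group had 2 arrays, and each array held the pooled RNA of 3 aortas, which leaves variation between individual mice unmeasured. No source used here says whether 1 animal could enter both pools of its group.

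Hepatocytes convert amino acids to glucose and urea, methylate and conjugate metabolites, and synthesize bile acids and most plasma proteins. Transcription of these enzymes in the liver depends on factors such as HNF1 and HNF4 alpha. Some of the enzymes also work elsewhere, for example phosphoenolpyruvate carboxykinase in adipocytes, arginase 1 in macrophages, and alcohol dehydrogenase 1 and sulfotransferase 1A1 in many tissues. An aorta is composed mainly of smooth muscle cells, endothelial cells and fibroblasts, none of which is known for a complete urea cycle or for gluconeogenesis.

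The regions upstream of 4 of these genes are shown because their signals behaved differently. Fabp1 had the largest difference between vitamin E-treated and untreated ApoE-/- aortas, Bhmt was among the genes furthest below B6, Pck1 had the highest signal, and Khk differed little between the groups. The sequences are from RefSeq on mouse assembly GRCm38.p6 and comprise the 250 bases before the annotated start, read 5′ to 3′ on the strand of the gene. Capitals mark GTTAAT, an HNF1 half-site, TATAAA, the TATA box, CAAAG, the core of HNF4 sites, and CCAAT, the CCAAT box, on either strand.
Fabp1, chr6:71199629-71199878, plus strand: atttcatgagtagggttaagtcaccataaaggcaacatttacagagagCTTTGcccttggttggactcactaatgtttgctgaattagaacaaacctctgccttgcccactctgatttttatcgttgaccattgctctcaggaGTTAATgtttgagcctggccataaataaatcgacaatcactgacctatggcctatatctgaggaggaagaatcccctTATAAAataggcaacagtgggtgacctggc
Bhmt, chr13:93637759-93638008, minus strand: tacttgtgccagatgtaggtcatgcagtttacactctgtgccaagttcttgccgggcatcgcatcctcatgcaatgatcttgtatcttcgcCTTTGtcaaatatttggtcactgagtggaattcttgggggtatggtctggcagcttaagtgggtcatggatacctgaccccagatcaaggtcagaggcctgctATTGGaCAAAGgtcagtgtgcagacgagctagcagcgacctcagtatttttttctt
Pck1, chr2:173152823-173153072, plus strand: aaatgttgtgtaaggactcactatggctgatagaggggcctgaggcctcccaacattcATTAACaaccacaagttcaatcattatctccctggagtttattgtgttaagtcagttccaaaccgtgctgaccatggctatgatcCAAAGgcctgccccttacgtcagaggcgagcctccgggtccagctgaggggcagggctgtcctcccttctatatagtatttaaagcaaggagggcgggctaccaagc
Khk, chr5:30921309-30921558, plus strand: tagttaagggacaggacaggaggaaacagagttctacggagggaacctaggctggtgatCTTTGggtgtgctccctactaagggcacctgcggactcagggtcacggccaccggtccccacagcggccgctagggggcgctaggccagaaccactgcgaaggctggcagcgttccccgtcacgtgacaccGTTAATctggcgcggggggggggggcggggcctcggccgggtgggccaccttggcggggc
The window of Fabp1 held the TATA box 30 bases and the HNF1 half-site 107 bases before the start, and that of Bhmt held CAAAG 50 bases before the start. Pck1 and Khk each held a GTTAAT on one of the strands, 192 and 60 bases before the start. No 2 of these motifs shared letters in the 4 windows shown. A window was found for 27 of the 37 genes, 28 windows in all. GTTAAT was found in 6 of the 28 windows (21.4%), against 6.43% of all 32851 mouse windows of this length. For TATAAA the shares were 25% and 12.4%, and they were 64.3% and 48.6% for CAAAG, and 53.6% and 33.8% for CCAAT. A match describes the letters only, and no binding was measured.

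Signal intensities are linear and were scaled by the authors to a target of 200 per array. Values under 20 were set to 20 before log2 transformation, and the test covered the 17909 probe sets whose group mean reached 100 in any of the 3 groups. With 1 probe set per gene, the one with the highest mean over the arrays, 26 of the 35 genes were tested. Of these, 12 reached 100 in an ApoE-/- group and 14 only in B6 aortas. The array means ranged from 305 to 319, and the 2 arrays of a group correlated at 0.984 to 0.992. Apoe, the disrupted gene, had signal intensities of 40.5 and 45.3 in vitamin E-treated and 93.2 and 57.4 in untreated ApoE-/- aortas, against 5209 and 5432 in B6 aortas. The smooth muscle actin gene Acta2 had 8791 to 11061 on the 6 arrays, and the adipocyte gene Adipoq 7022 to 11405. Bacterial poly-A transcripts that monitor labelling were 2.21- to 3.32-fold higher on B6 than on vitamin E-treated arrays and 2.62- to 4.11-fold higher on B6 than on untreated ApoE-/- arrays, and they differed by 1.09- to 1.26-fold between the 2 ApoE-/- groups. The Gapdh 3′ to 5′ signal ratio was 1.15 and 1.24 in vitamin E-treated, 1.03 and 1.06 in untreated ApoE-/- and 1.35 and 1.34 in B6 aortas. The part of these measures in the results was not tested. The sample labels of the vitamin E-treated arrays are numbered and worded apart from those of the untreated ApoE-/- and B6 arrays. Dates of labelling or hybridization were not given in the sources used here. Any batch that coincided with a group, also one that set the vitamin E-treated arrays apart, cannot be told apart from it.

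In vitamin E-treated relative to untreated ApoE-/- aortas, 7 of the 26 genes rose, namely Fabp1, Arg1, Bhmt, Pck1, Fbp1, Akr1c6 and Hpd, by 1.61- to 2.73-fold, where the value of Akr1c6 is a lower bound. The other 19 genes did not pass, with adjusted p values from limma of 0.06 and above. None of the 26 fell by limma, either after adjustment or at an unadjusted p under 0.05, where 10 were higher. Of all 17909 probe sets tested, 8.52% rose and 6.99% fell in this comparison. The 7 genes stayed below both B6 arrays in vitamin E-treated aortas. Against B6, 23 of the 26 genes were lower in vitamin E-treated ApoE-/- aortas, where 19.2% of all probe sets tested were called lower, and 23 in untreated ApoE-/- aortas, where 19.1% were. Both ApoE-/- groups lay wholly below the B6 arrays for 24 genes, against 34.0% of all probe sets tested for vitamin E-treated and 36.0% for untreated ApoE-/- aortas. Nothing is read from these counts, since the genes were listed with these differences known. The untreated arrays also enter the comparison against B6 with which the genes were listed, so the test between the ApoE-/- groups is not fully independent of that choice. In RNA of whole tissue, fewer cells of a type and less RNA per cell cannot be told apart. With 2 against 2 arrays the smallest two-sided p of an exact permutation test is 0.333. The adjusted p values given here therefore come from limma, which borrows its estimate of the spread from all probe sets, with the Benjamini-Hochberg method over the 17909 tested.

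**Figure D1:**
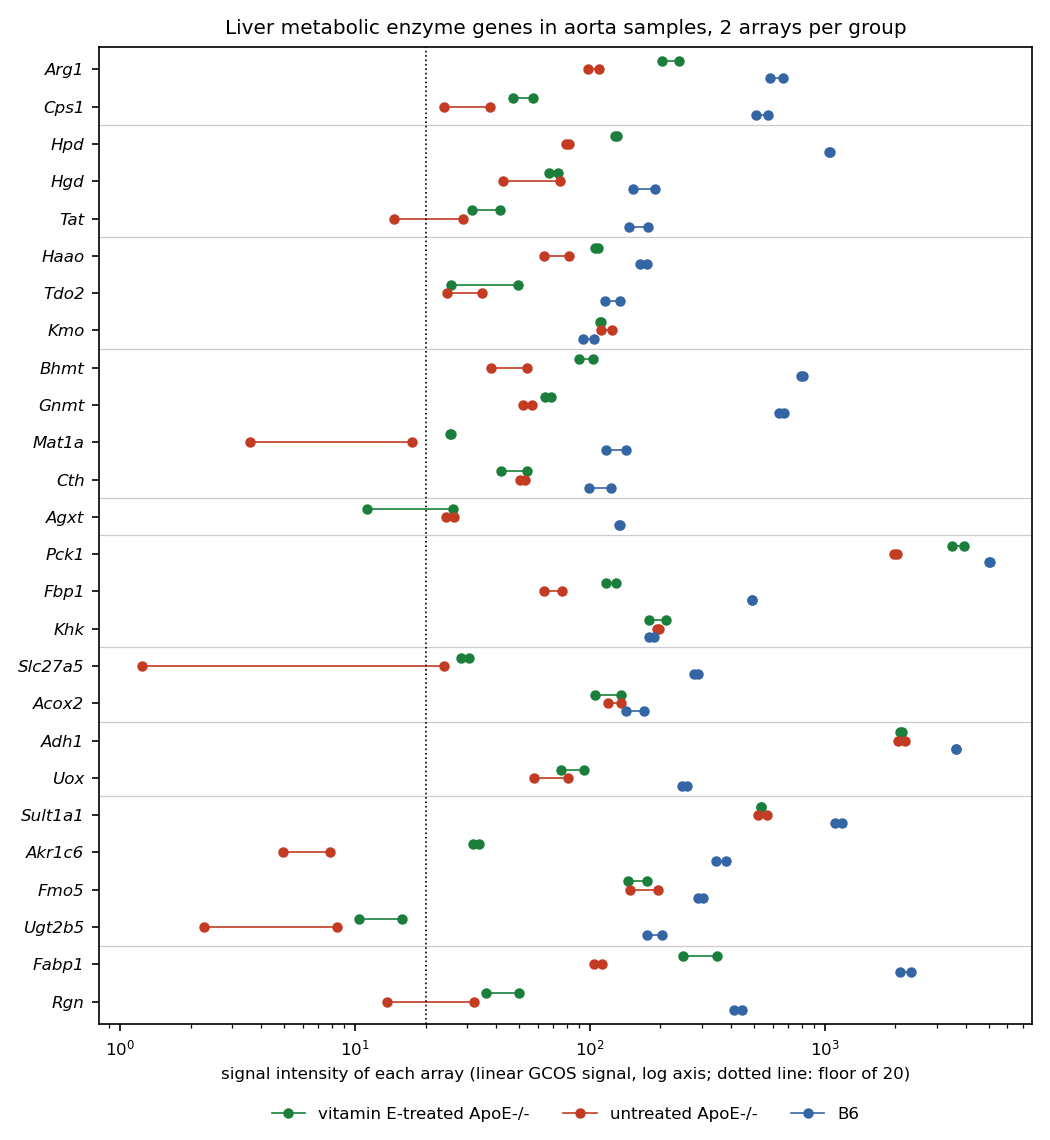
Signal intensity of each array (linear signal on a log axis) for the 26 genes tested, grouped by pathway, with vitamin E-treated ApoE-/- (green), untreated ApoE-/- (red) and B6 aortas (blue) and a line joining the 2 arrays of a group. In 24 of the 26 genes every ApoE-/- array lies below both B6 arrays, and Kmo and Khk are the exceptions.

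Cps1 and Arg1 of the urea cycle had lower mean signals in both ApoE-/- groups than in B6 aortas. Cps1, carbamoyl-phosphate synthetase, which admits ammonia to the cycle, had signal intensities of 47.3 and 57.1 in vitamin E-treated and 24.0 and 37.7 in untreated ApoE-/- aortas, against 573 and 508 in B6 aortas. The 3 groups did not overlap, and the log2 fold change between vitamin E-treated and untreated ApoE-/- aortas of 0.79 did not pass (standard error 0.24, adjusted p = 0.064). It passed without replicate 2 of the untreated arrays, at a log2 fold change of 1.11. Arg1, arginase 1, which releases urea, had 203 and 239 in vitamin E-treated and 98.1 and 109 in untreated ApoE-/- aortas, and 662 and 582 in B6 aortas. It rose with vitamin E by 2.13-fold (log2 fold change 1.09, standard error 0.13, adjusted p = 0.0023). Otc, ornithine transcarbamylase, was just below the limit for testing, with 9.22 and 2.04 in vitamin E-treated and 8.33 and 3.02 in untreated ApoE-/- aortas and 99.2 and 94.3 in B6 aortas. All ApoE-/- arrays were under 20 for Otc. Ass1, argininosuccinate synthetase, did not exceed 24.4 on any array with the probe set that carries its symbol alone.

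Of the enzymes of tyrosine breakdown, Hpd, Tat and Hgd had their highest mean in B6 and their lowest in untreated ApoE-/- aortas. Hpd, 4-hydroxyphenylpyruvate dioxygenase, had 128 and 130.5 in vitamin E-treated and 81.6 and 79.4 in untreated ApoE-/- aortas, against 1056 and 1042 in B6 aortas. The arrays of a group lay close together and the 3 groups were well separated. Hpd rose with vitamin E by 1.61-fold (log2 fold change 0.68, standard error 0.099, adjusted p = 0.0052). Tat, tyrosine aminotransferase, which starts this pathway, had 31.4 and 41.6 in vitamin E-treated and 28.9 and 14.7 in untreated ApoE-/- aortas, and 176 and 148 in B6 aortas. Hgd, homogentisate dioxygenase, had 73.1 and 67.3 in vitamin E-treated and 42.7 and 74.6 in untreated ApoE-/- aortas, and 190.0 and 152 in B6 aortas. The ApoE-/- groups overlapped for Hgd and not for Tat, and neither gene passed (adjusted p = 0.17 for Tat and 0.47 for Hgd).

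The tryptophan pathway held both a gene with a lower signal in ApoE-/- aortas and one without. Tdo2, tryptophan dioxygenase, had 49.4 and 25.6 in vitamin E-treated and 24.6 and 34.8 in untreated ApoE-/- aortas, against 134 and 116 in B6 aortas. Haao, 3-hydroxyanthranilate dioxygenase, had 105 and 108 in vitamin E-treated, 81.5 and 63.6 in untreated ApoE-/- and 175 and 164 in B6 aortas. The ApoE-/- groups did not overlap for Haao, but the log2 fold change of 0.57 between them did not pass (adjusted p = 0.06). Kmo, kynurenine monooxygenase, had 112 and 110.3 in vitamin E-treated, 111 and 125 in untreated ApoE-/- and 104.5 and 93.9 in B6 aortas. It was the only tested gene of the 26 with all ApoE-/- arrays above both B6 arrays.

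Genes of methionine and homocysteine metabolism were represented by 4 enzymes. Bhmt, betaine-homocysteine methyltransferase, had 103 and 89.6 in vitamin E-treated and 54.0 and 38.0 in untreated ApoE-/- aortas, against 806 and 793 in B6 aortas. It rose with vitamin E by 2.12-fold (log2 fold change 1.08, standard error 0.18, adjusted p = 0.0095). Gnmt, glycine N-methyltransferase, had 64.4 and 68.1 in vitamin E-treated and 56.7 and 51.8 in untreated ApoE-/- aortas, and 641 and 672 in B6 aortas. Set against B6, untreated ApoE-/- aortas had 12.1-fold less Gnmt and 17.6-fold less Bhmt signal, and the log2 fold change of Gnmt with vitamin E was 0.29 and did not pass (adjusted p = 0.18). A difference between the changes of the 2 genes was not tested. Mat1a, methionine adenosyltransferase of liver, had 25.7 and 25.4 in vitamin E-treated and 3.59 and 17.6 in untreated ApoE-/- aortas, and 143 and 118 in B6 aortas. Cth, cystathionine gamma-lyase, had 41.8 and 54.2 in vitamin E-treated, 53.2 and 50.5 in untreated ApoE-/- and 123 and 99.5 in B6 aortas. The ApoE-/- groups overlapped for Cth, and the signals of Mat1a in untreated ApoE-/- aortas were below 20. Agxt, alanine-glyoxylate aminotransferase of amino acid breakdown, had 26.1 and 11.3 in vitamin E-treated and 26.3 and 24.4 in untreated ApoE-/- aortas, against 135 and 134 in B6 aortas.

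Of the sugar metabolism enzymes, Pck1 and Fbp1 rose with vitamin E and Khk did not pass. Pck1, phosphoenolpyruvate carboxykinase, which controls entry into gluconeogenesis and also supplies glycerol in adipocytes, had 3933 and 3489 in vitamin E-treated and 2026.5 and 1967 in untreated ApoE-/- aortas, against 4994 and 5035 in B6 aortas. The difference between the ApoE-/- groups was 1.86-fold (log2 fold change 0.89, standard error 0.074, adjusted p = 0.00048), and vitamin E-treated aortas remained 1.35-fold below B6 aortas. A second probe set of Pck1 had 616 and 641 in vitamin E-treated and 351 and 330.0 in untreated ApoE-/- aortas, against 659 and 681 in B6 aortas, and its log2 fold change between the ApoE-/- groups was 0.88 (adjusted p = 0.00049). By that probe set the vitamin E-treated arrays lay just under the B6 arrays. Fbp1, fructose-1,6-bisphosphatase, had 129 and 118 in vitamin E-treated and 76.2 and 63.9 in untreated ApoE-/- aortas, against 492 and 489 in B6 aortas. It rose by 1.77-fold (log2 fold change 0.82, standard error 0.14, adjusted p = 0.0092), a call that was lost without replicate 2 of the untreated arrays, where the log2 fold change was 0.69. Khk, ketohexokinase, which commits fructose to breakdown, had 210.1 and 178 in vitamin E-treated, 193 and 197 in untreated ApoE-/- and 188 and 178 in B6 aortas. These values overlapped between vitamin E-treated and each of the other groups.

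Fabp1, liver fatty acid-binding protein, had the largest difference of the 26 genes between the ApoE-/- groups. Its signal intensities were 349.7 and 250.5 in vitamin E-treated and 112 and 104 in untreated ApoE-/- aortas, against 2083 and 2339 in B6 aortas. This was a 2.73-fold rise with vitamin E (log2 fold change 1.45, standard error 0.15, adjusted p = 0.0014), which left the signal 7.46-fold below that of B6 aortas. A second probe set of Fabp1 had 158 and 161 in vitamin E-treated and 77.1 and 70.3 in untreated ApoE-/- aortas, against 954 and 1037 in B6 aortas, and it rose by 2.17-fold (adjusted p = 0.00095). Both probe sets kept the 3 groups apart. Rgn, regucalcin, a calcium-binding gluconolactonase, had 50.2 and 36.3 in vitamin E-treated and 13.7 and 32.0 in untreated ApoE-/- aortas, against 445 and 409.8 in B6 aortas. Its log2 fold change of 0.75 did not pass (standard error 0.27, adjusted p = 0.1), and the 2 untreated arrays were far apart.

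Slc27a5, the bile acyl-CoA synthetase, and Acox2, the peroxisomal oxidase that shortens the bile acid side chain, represented bile acid synthesis. Slc27a5 had 28.4 and 30.7 in vitamin E-treated and 24.0 and 1.24 in untreated ApoE-/- aortas, against 288 and 278 in B6 aortas. Acox2 had 105 and 136 in vitamin E-treated, 120.1 and 136 in untreated ApoE-/- and 170.0 and 142 in B6 aortas. Neither passed between the ApoE-/- groups (adjusted p = 0.18 for Slc27a5 and 0.74 for Acox2), and the ApoE-/- groups overlapped for Acox2.

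Detoxification and oxidation enzymes differed in how far ApoE-/- aortas lay below B6 aortas. Akr1c6, a hydroxysteroid dehydrogenase, had 33.6 and 31.8 in vitamin E-treated and 4.95 and 7.87 in untreated ApoE-/- aortas, against 380.0 and 345 in B6 aortas. Both untreated arrays were under 20, so the gene was at least 1.63-fold higher with vitamin E (adjusted p = 0.038). This call was lost when any one of the 6 arrays was left out, with log2 fold changes of 0.67 to 0.75. Ugt2b5, a UDP-glucuronosyltransferase, had 15.9 and 10.4 in vitamin E-treated and 8.41 and 2.29 in untreated ApoE-/- aortas, all under 20, against 203 and 175 in B6 aortas. It belongs to a family of near-identical genes, and its probe set may read more than 1 of them. It was at least 9.43-fold below B6 aortas in both ApoE-/- groups, and Akr1c6 at least 18.1-fold in the untreated group. Uox, urate oxidase, had 75.4 and 94.3 in vitamin E-treated and 57.9 and 80.7 in untreated ApoE-/- aortas, against 260.0 and 247 in B6 aortas. Adh1, Sult1a1 and Fmo5 had signals above 100 on every array of all 3 groups. Adh1, alcohol dehydrogenase 1, had 2137 and 2094 in vitamin E-treated and 2201 and 2047 in untreated ApoE-/- aortas, against 3637 and 3635 in B6 aortas. Sult1a1, a phenol sulfotransferase, had 533 and 534 in vitamin E-treated and 569 and 518 in untreated ApoE-/- aortas, against 1104 and 1189.6 in B6 aortas. Fmo5, a flavin-containing monooxygenase, had 146 and 175 in vitamin E-treated and 195 and 148 in untreated ApoE-/- aortas, against 303 and 288 in B6 aortas. For these 3 genes the ApoE-/- groups overlapped. The log2 fold change between them was −0.0049 for Adh1 (standard error 0.063), −0.02 for Sult1a1 (standard error 0.077) and −0.09 for Fmo5 (standard error 0.16).

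The 9 genes that were not tested were Ass1, Otc, Hal, G6pc, Adh4, Aass, Hao1, Baat and Dpys. Aass, which starts lysine breakdown, was nearest to the limit, with 23.3 and 19.4 in vitamin E-treated and 15.8 and 17.5 in untreated ApoE-/- aortas and 107 and 88.2 in B6 aortas. Just inside the limit was Cth, with a B6 mean of 111. In 7 of the 9, the ApoE-/- arrays all lay below both B6 arrays, and Ass1 and Baat were the others. The shares over all probe sets given above cover tested probe sets only, so this count has none beside it. Nothing is read from it, since the genes were listed with this difference known. Baat, which conjugates bile acids, was under 20 on all 6 arrays. Hal, G6pc, Adh4, Hao1 and Dpys ranged over 1.91 to 21.03 in vitamin E-treated and 0.738 to 18.05 in untreated ApoE-/- aortas, against 38.6 to 81.6 in B6 aortas.

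**Figure D2:**
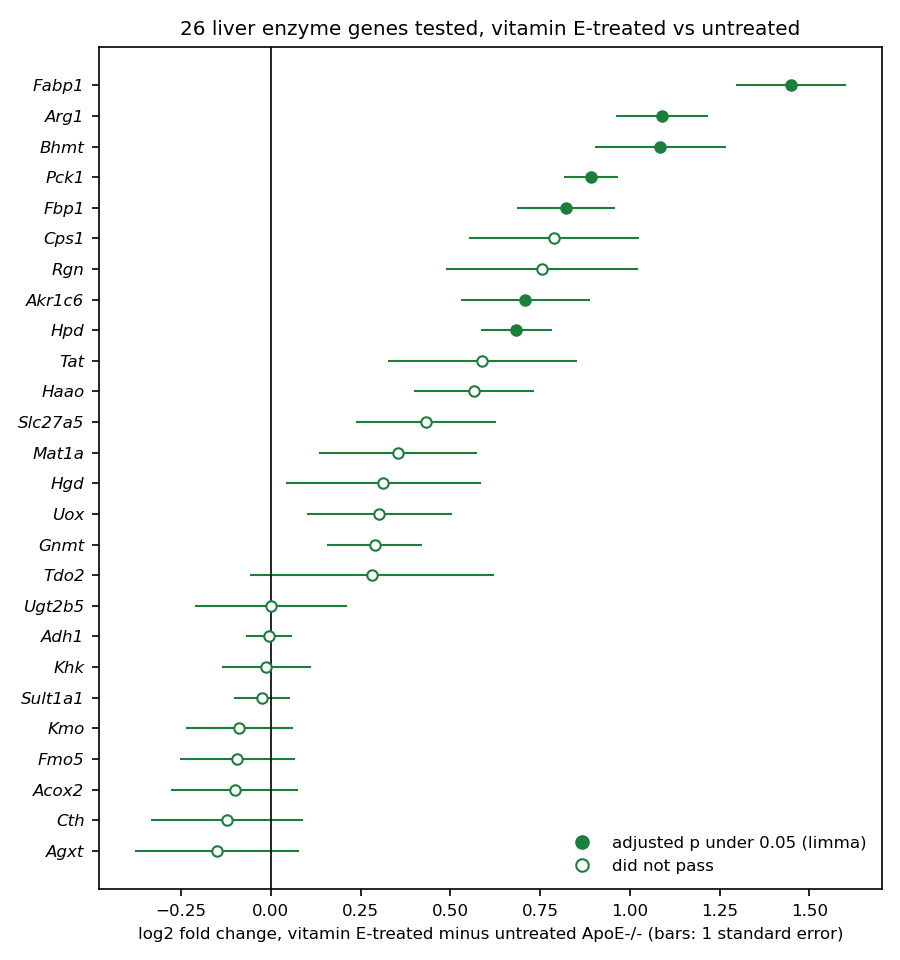
Log2 fold change of vitamin E-treated minus untreated ApoE-/- aortas for the 26 genes tested, with bars of 1 standard error from limma (2 arrays per group). Filled points are the 7 genes with an adjusted p under 0.05, from Hpd at 0.68 to Fabp1 at 1.45, and the lowest value is that of Agxt at −0.15.

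Over the 26 genes, the median log2 fold change between vitamin E-treated and untreated ApoE-/- aortas was 0.33, against 0.0035 over all probe sets tested. This median depended on the treatment of low signals, and was 0.0013 with a floor of 50, 0.63 without a floor and 0.13 over the 35 genes without a limit on the signal intensity. The vitamin E-treated arrays lay above both untreated arrays for 15 of the 26 genes and below both for none of them, where 30.5% and 28.4% of all probe sets tested did so. The 7 genes that rose were 5 of the 12 that reached a mean of 100 in an ApoE-/- group and 2 of the 14 that did so only in B6 aortas. Without a limit on the signal intensity, 2 of 35 genes passed, Hpd and Pck1. By the methods' t-test, which asks for a p of at most 0.01 and at least a 2-fold difference, no gene passed, none passed after Benjamini-Hochberg adjustment, and at an unadjusted p under 0.05 this t-test had 7 genes higher and 0 lower.

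Relative to B6 aortas, the 26 genes formed a graded series. The B6 mean exceeded both ApoE-/- means by at least 4-fold for 12 genes, and the B6 mean was within 2-fold of both ApoE-/- groups for 5 genes, Adh1, Fmo5, Acox2, Khk and Kmo. The other 9 genes lay between. The log2 fold change of untreated ApoE-/- against B6 aortas was −4.35 for Fabp1, −4.16 for Cps1, −4.14 for Bhmt and −4.08 for Rgn, which had 1 untreated array under the floor. In vitamin E-treated aortas the same genes had log2 fold changes against B6 of −2.90, −3.38, −3.06 and −3.32. Akr1c6, at −3.47 in vitamin E-treated and at the bound of −4.18 in untreated aortas, has no rank among them, since both untreated arrays were under the floor. The median over the 26 genes was −1.90 in vitamin E-treated and −2.49 in untreated ApoE-/- aortas, against 0.0197 and 0.0293 over all probe sets tested. For genes with ApoE-/- arrays under 20, the difference from B6 is limited by the floor of 20. Without a floor, the medians of −1.90 and −2.49 did not change. The median log2 signal of the arrays was 0.153 higher in vitamin E-treated ApoE-/- aortas than on the B6 arrays. After median centring, the median of −1.90 over the 26 genes was −2.05. The standing of the 2 ApoE-/- groups against B6 uses the same B6 arrays for both.

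**Figure D3:**
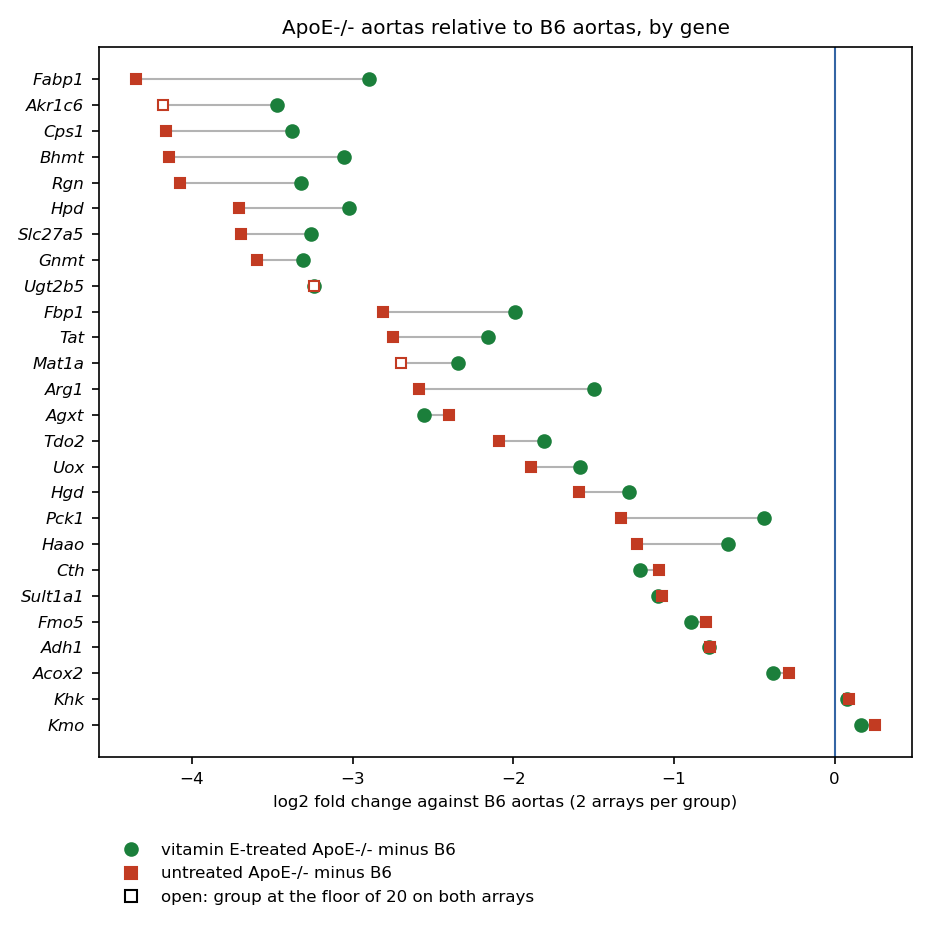
Log2 fold change against B6 aortas of vitamin E-treated (green circles) and untreated ApoE-/- aortas (red squares) for the 26 genes tested, with open symbols where both arrays of the group were under 20. Fabp1 lies at −4.35 in untreated aortas, open symbols are bounds set by the floor and have no rank, and only Khk and Kmo lie above 0.

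In the 4 genes with more than 1 probe set tested, Fabp1, Tdo2, Pck1 and Fmo5, each probe set had all ApoE-/- arrays below both B6 arrays. Tdo2 had a second probe set with 21.6 and 12.5 in vitamin E-treated and 14.96 and 10.01 in untreated ApoE-/- aortas, against 148 and 148 in B6 aortas. Here untreated ApoE-/- differed from B6 aortas by −2.89 on the log2 scale, against −2.09 for the first probe set. Fmo5 had a second with 99.7 and 74.3 in vitamin E-treated and 86.7 and 85.2 in untreated ApoE-/- aortas, against 153 and 163 in B6 aortas. Over all 30 probe sets of the genes that were tested, 9 rose in vitamin E-treated relative to untreated ApoE-/- aortas.

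Other genes of the same pathways were read on the same arrays. Of 51 further genes in lists of the urea cycle, amino acid, sugar, bile acid, purine, alcohol and detoxification pathways, 27 were tested. Of all probe sets tested, 6.99% fell and 8.52% rose in vitamin E-treated relative to untreated ApoE-/- aortas. In this comparison, 8 of the 27 fell and none rose by limma (at an unadjusted p under 0.05, 10 were lower and 2 higher, and by the t-test 7 and 1), with a median log2 fold change of −0.15. Among those that fell were Pcx, pyruvate carboxylase (log2 fold change −0.48, adjusted p = 0.0028), Gpt, alanine aminotransferase (−0.42, adjusted p = 0.0093), and Gstz1 and Fah, the last enzymes of tyrosine breakdown (−0.41 and −0.27, adjusted p = 0.010 and 0.042). In the urea cycle, the lyase Asl and the mitochondrial carriers Slc25a15 and Slc25a13 did not pass. Gstz1 had 578 and 575 in vitamin E-treated and 766 and 764 in untreated ApoE-/- aortas, against 962 and 879.9 in B6 aortas. Relative to B6 aortas, untreated ApoE-/- aortas had 12 of the 27 lower and 6 higher, with a median of −0.12, where 19.1% of all probe sets tested were called lower and 21.7% higher. Uroc1, urocanase of histidine breakdown, was higher than B6 in both ApoE-/- groups, with 139 and 115 in vitamin E-treated and 192 and 162 in untreated ApoE-/- aortas, against 32.6 and 36.5 in B6 aortas. Ces1c, a carboxylesterase that the liver secretes, had 95.4 and 88.9 in vitamin E-treated and 67.6 and 41.1 in untreated ApoE-/- aortas, against 438 and 488 in B6 aortas. The lists were assembled with earlier results of these arrays known, and whether the listed genes differ from these 27 was not tested.

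Genes of other cell types were read on the same arrays. Of the liver plasma proteins, 16 of 19 were tested. Of these, 10 rose in vitamin E-treated relative to untreated ApoE-/- aortas, where 8.52% of all probe sets tested rose. The median log2 fold change of the 16 was 0.73. The summed signal of the 17 with a probe set was 3038 and 3234 in vitamin E-treated and 1825 and 1872 in untreated ApoE-/- aortas, against 26919 and 27113 in B6 aortas. Alb, albumin, had 379 and 485 in vitamin E-treated and 243 and 273 in untreated ApoE-/- aortas, against 6097 and 6107 in B6 aortas. All 16 were lower than B6 in both ApoE-/- groups, where 19.2% (vitamin E-treated) and 19.1% (untreated) of all probe sets tested were called lower. Hepatocyte transporters showed 1 of 6 higher with vitamin E, the organic anion transporter Slco1b2 (42.3 and 51.1 in vitamin E-treated and 15.2 and 20.0 in untreated ApoE-/- aortas, against 138 and 127 in B6 aortas), and the summed signals of the 9 with a probe set were 358 and 388 in vitamin E-treated, 325 and 291 in untreated ApoE-/- and 1049 and 1032 in B6 aortas. Of the hepatocyte transcription factors, 3 of the 11 with a probe set were tested, and none passed between the ApoE-/- groups. In untreated ApoE-/- against B6 aortas 2 of the 3 were called higher and 1 lower, with a median log2 fold change of 0.42. Of all probe sets tested, 21.7% were called higher and 19.1% lower there. Hnf4a, the one called lower, had 14.8 and 54.4 in vitamin E-treated and 24.6 and 22.5 in untreated ApoE-/- aortas, against 121 and 125 in B6 aortas. The summed signals of the 11 were 2948 and 3457 in vitamin E-treated, 3583 and 3636 in untreated ApoE-/- and 2909 and 2889 in B6 aortas. These include Cebpa, which adipocytes also express and which had 2593 and 3006 in vitamin E-treated, 3162 and 3078 in untreated ApoE-/- and 2354 and 2320 in B6 aortas.

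Of the markers of liver macrophages and sinusoidal endothelium, 6 were tested. With vitamin E 2 of them rose and 1 fell, and against B6 the untreated ApoE-/- aortas had 1 higher and 3 lower. Of all probe sets tested, 8.52% rose and 6.99% fell with vitamin E, and these shares also apply to the lists that follow. In untreated ApoE-/- against B6 aortas 21.7% were called higher and 19.1% lower. The median log2 fold change of the 6 was 0.18 with vitamin E and −0.27 in untreated ApoE-/- against B6 aortas. Clec4f, which defines Kupffer cells, had 19.5 and 55.0 in vitamin E-treated and 18.6 and 21.5 in untreated ApoE-/- aortas, against 15.2 and 12.5 in B6 aortas. Clec4f was not tested, lay near or under the floor of 20 on most arrays and was chosen after its values were seen, so nothing is read from it. The summed signals, here and for the lists that follow over all genes with a probe set, were 2935 and 3136 in vitamin E-treated, 2544 and 2635 in untreated ApoE-/- and 2486 and 2472 in B6 aortas. Stratified epithelium genes also rose in vitamin E-treated relative to untreated ApoE-/- aortas, 8 of 8 tested, with a median log2 fold change of 0.96 and summed signals of 29419 and 32735 in vitamin E-treated against 16127 and 16273 in untreated ApoE-/- aortas. In B6 aortas these signals were 28339 and 28886, and 4 of the 8 genes were higher in vitamin E-treated ApoE-/- than in B6 aortas. Adipocyte genes had 2 of 8 lower with vitamin E and summed signals of 40609 and 47160 in vitamin E-treated, 44245 and 45332 in untreated ApoE-/- and 53366 and 53303 in B6 aortas. Aortic smooth muscle and elastic tissue genes had 4 of 9 lower with vitamin E, and summed signals of 17747 and 18748 in vitamin E-treated, 20017 and 20712 in untreated ApoE-/- and 20693 and 21395 in B6 aortas. Of the macrophage genes, 8 were tested and did not pass with vitamin E, with summed signals of 14306 and 14868 in vitamin E-treated, 15464 and 15666 in untreated ApoE-/- and 10963 and 10823 in B6 aortas. The part of any of these lists in the differences of the enzymes was not tested.

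**Figure D4:**
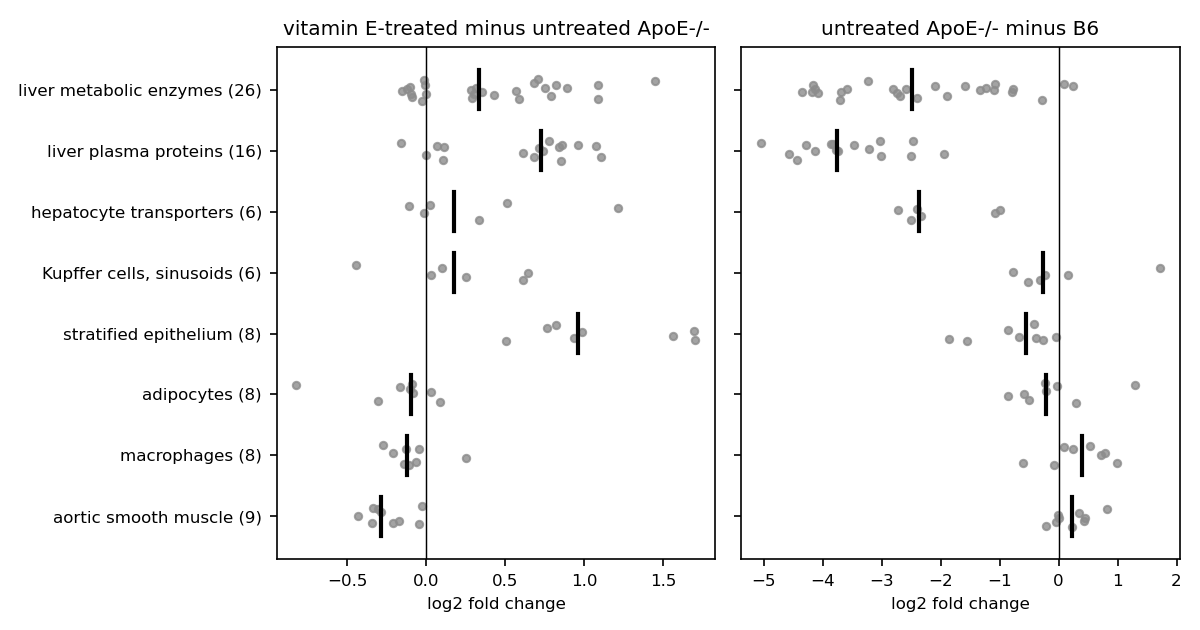
Log2 fold changes of single genes (grey points, number tested in brackets) and their median (black bar) in lists of cell type genes, for vitamin E-treated minus untreated ApoE-/- aortas (left) and untreated ApoE-/- minus B6 aortas (right). The medians of the metabolic enzymes and the plasma proteins lie below 0 on the right (−2.49 and −3.76) and above 0 on the left (0.33 and 0.73).

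The 2 arrays of a group were compared as a measure that the choice of the genes did not use. In B6 aortas, 22 of the 26 genes were higher on the first array, as were 9408 of the 17909 probe sets tested. The median log2 ratio was 0.086 over the 26 genes, against 0.0086 over all probe sets tested. Of the 16 plasma protein genes, 8 were higher there, with a median of 0.0048. The median log2 ratio of the 26 genes was 0.0075 in vitamin E-treated and 0.041 in untreated ApoE-/- aortas. In absolute terms the 26 genes differed between the 2 arrays by a median of 0.19 in vitamin E-treated, 0.16 in untreated ApoE-/- and 0.11 in B6 aortas. These medians cannot be compared between the groups, since 14 of the 26 genes reached a mean of 100 only in B6 aortas. Pairs of signals under the floor of 20, as for Ugt2b5 in both ApoE-/- groups, also enter as a difference of 0. Over all probe sets tested these medians were 0.147, 0.092 and 0.0965, so the vitamin E-treated arrays also differed most there. The widest differences were those of Tdo2 in vitamin E-treated (0.95) and Hgd in untreated ApoE-/- aortas (−0.81), both with signals under 100.

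**Figure D5:**
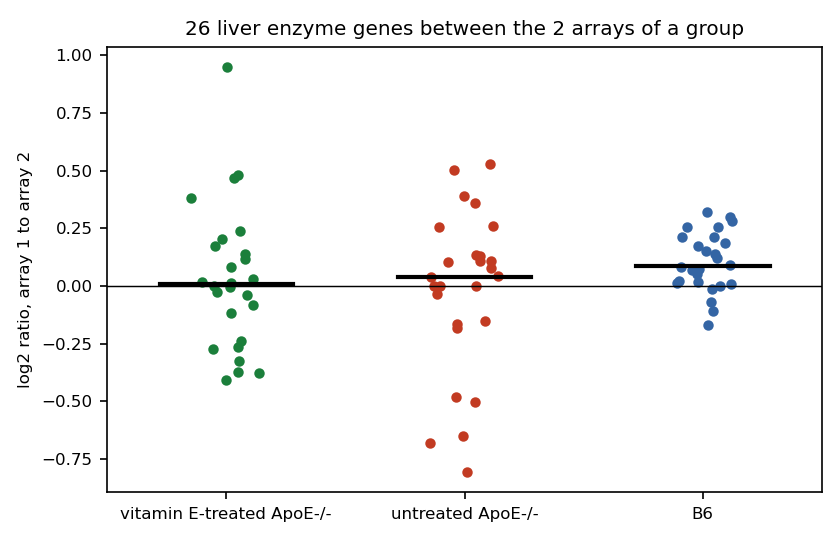
Log2 ratio of the first to the second array of each group for the 26 genes tested (points) and their median (black bar), for vitamin E-treated ApoE-/-, untreated ApoE-/- and B6 aortas. The B6 points lie within −0.17 to 0.32, and those of the ApoE-/- groups spread from −0.81 to 0.95. Most of the genes had lower signals in the ApoE-/- groups, so the spreads cannot be compared between the groups.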

How the data were processed

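Gene expression was measured on 6 Affymetrix MG430 2.0 arrays. Per the labels and the methods, the authors computed the signal intensities with GCOS, scaled each array to a target of 200 and deposited linear values, 1 per probe set and array. No genome build is named for the array annotation. The number of arrays limits the precision. Signals under 20 were set to 20, log2-transformed, and tested where a group mean reached 100, without array controls. The 3 group means were fitted with limma 3.58.1 in R 4.3.3 (3 residual and 4.46 prior degrees of freedom, intensity trend), with Benjamini-Hochberg adjustment over 17909 probe sets. A call is an adjusted p under 0.05. The procedure was run on simulated data with independent noise and raised values only. No floor was applied after the noise was added, so this run does not test calls near the floor. A fold is a lower bound where neither array of the lower group reached 20.

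The members and all gene lists were chosen with earlier results of these data known. Values on every array are given for genes with a group mean of at least 100, other members by range, and at most 4 genes per other list, the 2 with the highest mean and the 2 with the largest difference between the ApoE-/- groups. Clec4f, Apoe and the nearest untested genes were singled out after their values were seen. The alternatives comprised quantile normalization and median centring, floors of 50 and none, no filter, a filter on the mean of all arrays, no trend, 2 groups only, a replicate block, each array left out, the methods' t-test and all probe sets. The captopril arrays of the study were not used here.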

Additional observations from a re-analysis of the deposited data

How the results depend on the processing

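With a floor of 50 the median between the ApoE-/- groups was 0.0013, less than the SD of 0.0724 between arrays, so it had no direction there. The other alternatives that gave a median kept its sign, and no gene turned its direction past the threshold. Between vitamin E-treated and untreated ApoE-/- aortas, 7 genes passed, against 2 without the filter, where 35 genes were tested, and 0 by the methods' t-test. Leaving out any 1 array gave 6. The median log2 fold change of 0.33 was 0.25 after quantile normalization, 0.25 after median centring, 0.63 without a floor, 0.13 without the filter and 0.57 with a filter on the mean of all arrays, and it was 0.33 to 0.41 with each array left out. Akr1c6 lost its call in 12 of the alternatives, and Haao passed without the intensity trend. For untreated ApoE-/- against B6 aortas, 23 genes were lower, against 15 by the t-test and 22 to 23 with each array left out. The median of −2.49 was −1.58 with a floor of 50, −1.92 without the filter, −2.59 with the filter on all arrays, and −2.54 to −2.42 with each array left out. For vitamin E-treated ApoE-/- against B6 aortas, 23 were lower, against 13 by the t-test and 21 to 24 with each array left out. The median of −1.90 was −1.998 after quantile normalization, −2.05 after centring, −1.46 with a floor of 50, −1.81 without the filter, −1.59 with the filter on all arrays, and −2.01 to −1.84 with each array left out. A higher floor raises low signals, which compresses the differences by construction, and the cause of the other shifts was not tested.

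The samples were not treated as paired by replicate number. The deviations of arrays numbered alike correlated at 0.055, −0.098 and 0.054. With 2 arrays per group this cannot exclude that arrays numbered alike were processed together. With the replicate number as a block, 6 genes rose in vitamin E-treated relative to untreated ApoE-/- aortas, and 23 and 23 were lower against B6. Signals under 20 are not ordered, and several genes had them in ApoE-/- aortas.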

Other observations

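Genes of organs near the aorta were read on the same arrays. Of 12 kidney genes none reached the limit for testing, and the highest signal was 72.8. Of the 8 adrenal cortex genes none was tested, although Hsd3b1, chosen after seeing its values, had 1.91 and 10.9 in vitamin E-treated and 109 and 84.8 in untreated ApoE-/- aortas, against 12.8 and 5.03 in B6 aortas. Cela1, a pancreatic elastase, had 137 and 154 in vitamin E-treated and 239 and 228 in untreated ApoE-/- aortas (log2 fold change −0.69, adjusted p = 0.016 by limma), against 142 and 122 in B6 aortas. Both Hsd3b1 and Cela1 had their highest signals in untreated ApoE-/- aortas. Of the 7 pancreas genes with a probe set, 2 were tested. With vitamin E 1 of the 2 fell, where 6.99% of all probe sets tested did. In untreated ApoE-/- against B6 aortas 2 were called higher, where 21.7% were. Of the 8 small intestine genes with a probe set only Apob was tested. It did not pass with vitamin E, and its log2 fold change in untreated ApoE-/- against B6 aortas was −3.12.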
